A study of Mus musculus with 24 samples.

Results

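The 9 genes followed here encode the sarcomeric actins and the troponin subunits of skeletal muscle: Actc1, Acta1, Tnnt1, Tnnt2, Tnnt3, Tnni1, Tnni2, Tnnc1 and Tnnc2. They were chosen by gene symbol and by no rule on measured values, but with earlier results of these data known. Each is represented by 1 probe set among 14064 genes tested. All 9 passed the filter on dim probe sets. Transcripts were measured with 24 single-colour arrays, in satellite cells, the resident stem cells of skeletal muscle, and in endothelial cells, both sorted from the tibialis anterior muscle of mice. The groups were satellite cells of muscle injured with cardiotoxin, a snake venom toxin that lyses muscle fibres, on days 2, 4 and 8 after injury, and satellite cells of muscle taken before injury (day 0). Endothelial cells were sampled on the same 4 days, which gives 8 groups with 3 biological replicates each. Satellite cells were sorted as CD45-, Sca1-, CD31- and alpha7-integrin+ cells with positive or low CD34, and endothelial cells as CD45- cells that carried Sca1, CD34 and CD31. Strain, sex and age of the mice, and whether animals were pooled, are not given in the labels.

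The thin filament of the sarcomere is a polymer of actin that carries tropomyosin and the troponin complex. Troponin C binds calcium, troponin I holds the filament in its inhibited state at rest, and troponin T ties the complex to tropomyosin, so that calcium release permits myosin to bind actin. Each subunit has isoforms from separate genes. Tnnt1, Tnni1 and Tnnc1 encode the slow skeletal forms, Tnnc1 also being the cardiac troponin C. Tnnt3, Tnni2 and Tnnc2 encode the fast skeletal forms. Tnnt2 encodes cardiac troponin T and Actc1 cardiac alpha-actin, and both are also made in developing and regenerating skeletal muscle. Acta1 encodes the skeletal alpha-actin of adult fibres. Below, Actc1 and Tnnt2 are called developmental, Tnnt1, Tnni1 and Tnnc1 slow, and Acta1, Tnnt3, Tnni2 and Tnnc2 adult or fast.

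Values are deposited log2 intensities, on which array medians lay between 4.11 and 4.40, and a value near that median is close to background. Levels of different probe sets are not comparable, so only changes of a gene are compared between genes. The coding sequences of the actin genes are nearly identical, and cross-hybridisation between Acta1 and Actc1 was not tested. Samples were grouped by title. The separate cell type field goes against the title in 12 of the 24 samples and the time point field in 18. Pecam1, the gene of CD31, was 10.77 or less in each satellite array and 11.29 or more in each endothelial array, as the titles have it, while no gene used here tests the day. Satellite day 8 replicate 1 stood apart from the other two day 8 arrays in the adult or fast genes, and the member calls that changed without it are given beside the results. In the description field that array carries number 1 after its day and the other two carry 3 and 4, and what this number marks is not stated. In sorted populations, a larger share of cells of one type and more RNA per cell cannot be told apart.

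In satellite cells all 5 developmental and slow genes were higher on day 4 than on day 0 and, except Tnnc1, still higher on day 8. Of the adult or fast genes, Acta1 had risen by day 4 and Tnnt3 and Tnnc2 by day 8. A gene is called here where limma's adjusted p was under 0.05 and the log2 difference was 1 or more in size. On day 2, 2 of the 9 (Actc1 and Tnnt1) were called lower than on day 0, where 9.67% of all genes tested were lower and 10.9% higher. On day 4, 6 were called higher than on day 0 (both developmental, all 3 slow and Acta1), against 6.53% of all genes. On day 8, 7 were called higher than on day 0, with Tnnc1 and Tnni2 the exceptions, against 4.38% of all genes. The median log2 difference of the 9 was -0.05, 2.26 and 2.67 on days 2, 4 and 8 against day 0, and over all genes tested it was -0.03, 0.01 and -0.01. From day 2 to day 4 alone, the 5 developmental and slow genes and none of the adult or fast genes were called higher, against 4.79% of all genes. From day 4 to day 8 a single member was called, Tnnc1, which was lower, as were 0.519% of all genes. The day 8 count against day 0 was 4 without satellite day 8 replicate 2 and 4 without replicate 3. The day 2 count was 1 without satellite day 0 replicate 2, without satellite day 2 replicate 1 or without satellite day 2 replicate 2, when Actc1 was lost.

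**Figure D1:**
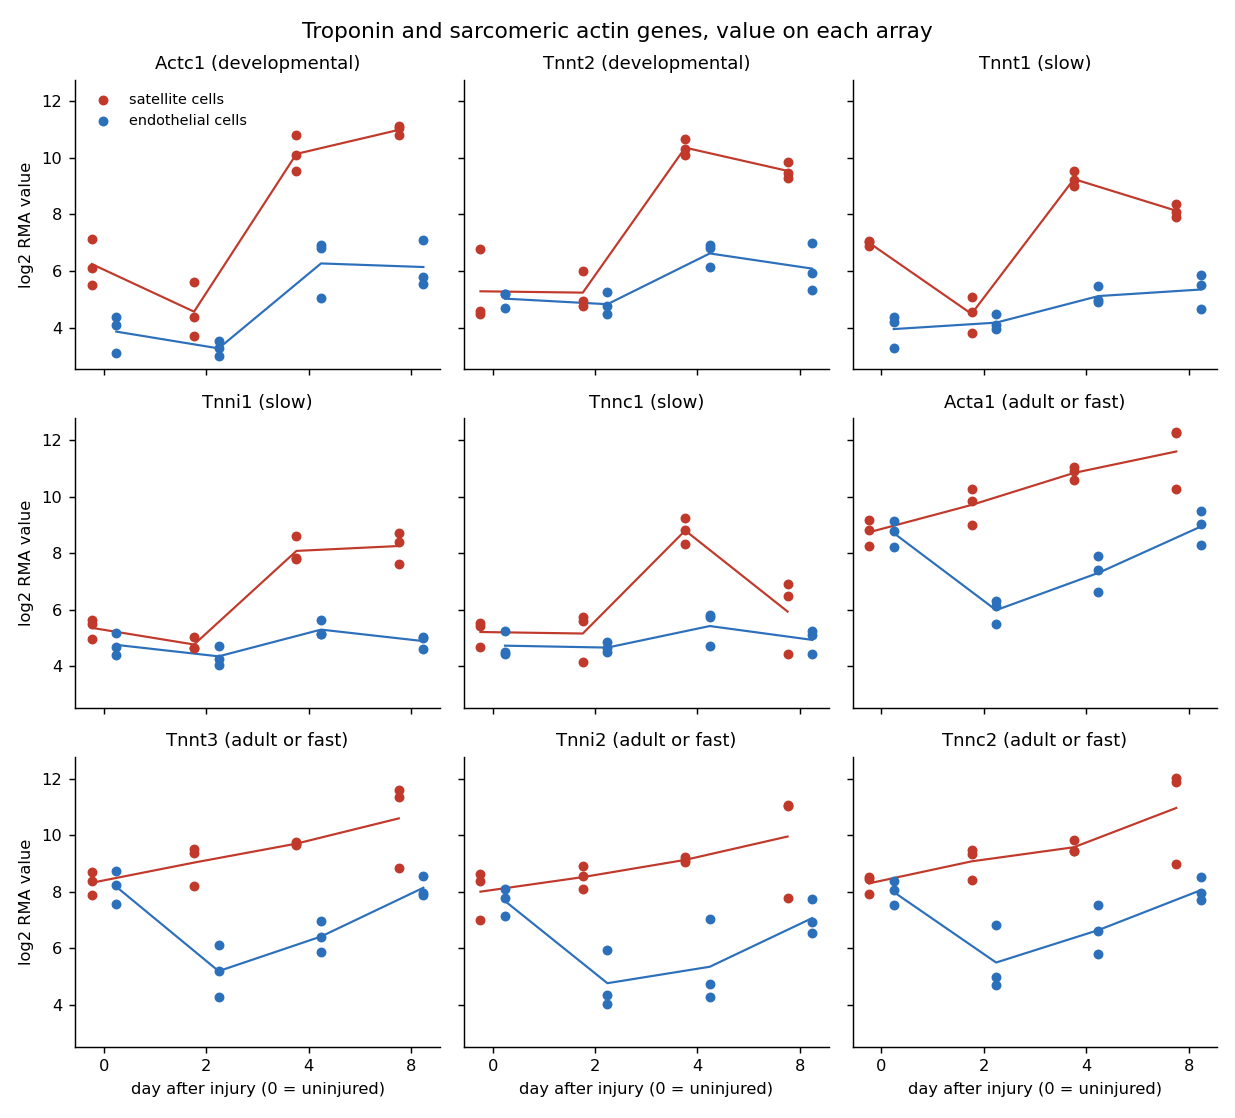
Log2 RMA value of each of the 9 genes (y axis) by day after injury (x axis, days evenly spaced, day 0 before injury) in satellite cells (red) and endothelial cells (blue). Points are single arrays and lines join group means (n = 3). The 5 developmental and slow genes step up between days 2 and 4 in satellite cells, and the 4 adult or fast genes dip on day 2 in endothelial cells.

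Actc1, the cardiac alpha-actin gene, gave 6.10, 7.15 and 5.50 on day 0, 3.71, 4.36 and 5.62 on day 2, 10.79, 10.11 and 9.52 on day 4 and 10.81, 11.05 and 11.12 on day 8 in satellite cells. The day 4 and day 8 arrays all lay above every earlier array, while days 0 and 2 overlapped. Against day 0, Actc1 fell by 1.69 on the log2 scale on day 2 (SE 0.55, adjusted p = 0.025), was 3.90 higher on day 4 (SE 0.55, 14.9-fold, adjusted p = 3.34e-05) and 4.75 higher on day 8 (SE 0.55, 26.8-fold, adjusted p = 7.69e-06). It had the largest rise of the 9 genes on day 8.

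Tnnt2, the gene of cardiac troponin T, gave 6.77, 4.50 and 4.58 on day 0, 4.77, 6.00 and 4.94 on day 2, 10.66, 10.11 and 10.32 on day 4 and 9.46, 9.29 and 9.87 on day 8. On day 0, replicate 1 was well above the other two, which were near background. Tnnt2 had the largest rise of the 9 on day 4, 5.08 (SE 0.48, adjusted p = 3.1e-07), and was 4.26 above day 0 on day 8 (SE 0.48, adjusted p = 6.56e-06). Without day 0 replicate 1 these differences were 5.83 and 5.00. All day 8 arrays lay below all day 4 arrays, but that difference, -0.82 (95% interval -1.83 to 0.19, adjusted p = 0.506), was not called.

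The upstream windows of Actc1, Tnnt2 and Acta1 are printed because these are the 2 developmental genes, which rose the most, and the adult paralogue of Actc1. Each is the 250 bases before an annotated start in RefSeq (GRCm38.p6), 5′ to 3′ on the strand of the gene. Capitals mark CArG boxes, the sequence that serum response factor binds, and E-boxes (CANNTG), the sequence that MyoD family factors and other proteins bind. The windows are at chr2:114052876-114053125 (minus strand) for Actc1, chr1:135836084-135836333 (plus strand) for the first of the Tnnt2 starts, and chr8:123894776-123895025 (minus strand) for Acta1.
Actc1: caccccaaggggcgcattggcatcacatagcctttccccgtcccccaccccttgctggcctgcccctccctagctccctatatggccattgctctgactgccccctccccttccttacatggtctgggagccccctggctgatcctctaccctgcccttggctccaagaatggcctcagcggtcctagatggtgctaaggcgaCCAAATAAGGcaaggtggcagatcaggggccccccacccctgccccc
Tnnt2: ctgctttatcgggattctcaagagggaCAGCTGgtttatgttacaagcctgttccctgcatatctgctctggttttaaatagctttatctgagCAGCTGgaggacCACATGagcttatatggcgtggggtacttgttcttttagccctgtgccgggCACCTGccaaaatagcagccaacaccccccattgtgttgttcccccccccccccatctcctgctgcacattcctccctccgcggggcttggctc
Acta1: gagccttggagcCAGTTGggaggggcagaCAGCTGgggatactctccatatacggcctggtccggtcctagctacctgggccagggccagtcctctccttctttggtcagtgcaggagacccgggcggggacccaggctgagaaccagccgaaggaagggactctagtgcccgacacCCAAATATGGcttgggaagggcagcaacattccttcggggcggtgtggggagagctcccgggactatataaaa
Both actin windows hold 1 CArG box, CCAAATAAGG in Actc1 at 47 to 38 bases before the start and CCAAATATGG in Acta1 at 73 to 64 bases before it. No other member window held one, and 1.47% of 32851 windows of this length in the same table did. The Tnnt2 window has 4 E-boxes, of which 2 read CAGCTG, and 1 MCAT core (CATTCC, not capitalised) at 27 to 22 bases before the start. The Acta1 window has 2 E-boxes, of which 1 reads CAGCTG, and 1 MCAT core at 46 to 41 bases before the start. The Actc1 window has no E-box and no MCAT core. Among the windows not printed, that of Tnnc1 also holds an MCAT core and those of Tnni1 a CAGCTG. E-boxes are common, being present in 66.2% of all windows, with CAGCTG in 13% and CATTCC in 12.6%. Both strands were searched, and CAGCTG is itself an E-box. RefSeq windows were matched for 7 of the 9 genes, 9 windows in all. No window of a member held the MEF2 site that was searched, which 2.92% of all windows hold. A match is a description of letters and says nothing of binding in these cells.

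Of the slow genes, Tnnt1 (slow troponin T) had a tight level in satellite cells before injury, was lower on day 2 and higher on day 4. Its values were 7.04, 7.06 and 6.89 on day 0, 4.57, 3.80 and 5.09 on day 2, 9.53, 9.01 and 9.22 on day 4 and 8.39, 7.91 and 8.10 on day 8. No 2 days overlapped. Tnnt1 fell by 2.51 on the log2 scale on day 2 (SE 0.33, adjusted p = 7.6e-06), was 2.26 above day 0 on day 4 (SE 0.33, 4.78-fold, adjusted p = 5.64e-05) and 1.14 above it on day 8 (SE 0.33, 2.20-fold, adjusted p = 0.0354). The step from day 2 to day 4 was 4.77 (SE 0.33, adjusted p = 2.85e-09). The day 8 call against day 0 was lost when any one of the 6 satellite arrays of days 0 and 8 was left out, with values of 1.01 to 1.25 and adjusted p of 0.0512 to 0.123.

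Tnni1, slow troponin I, was near background until day 2 and then high on both later days. It gave 5.62, 5.50 and 4.96 on day 0, 5.04, 4.63 and 4.64 on day 2, 8.61, 7.79 and 7.83 on day 4 and 7.63, 8.40 and 8.73 on day 8. It was 2.72 above day 0 on day 4 (SE 0.30, adjusted p = 1.89e-06) and 2.89 above it on day 8 (SE 0.30, adjusted p = 2.16e-06). Days 4 and 8 overlapped and differed by 0.17 (95% interval -0.45 to 0.80).

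Tnnc1, the troponin C of slow and cardiac muscle, was the one member with a peak on day 4 that was called in both directions. Its values were 5.52, 5.43 and 4.68 on day 0, 5.73, 4.16 and 5.58 on day 2, 8.84, 9.26 and 8.31 on day 4 and 4.42, 6.90 and 6.48 on day 8. Every day 4 array was above all others. It was 3.59 higher on day 4 than on day 0 (SE 0.51, adjusted p = 3.67e-05), and on day 8 it was lower than on day 4 (log2 difference -2.87, SE 0.51, adjusted p = 0.00351). Day 8 was 0.72 above day 0 (95% interval -0.34 to 1.78, adjusted p = 0.446) with all arrays, and 1.48 above it without day 8 replicate 1 (adjusted p = 0.0469), which is the lowest Tnnc1 array of the 3.

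Among the adult or fast genes, Acta1 (skeletal alpha-actin) gave 8.81, 8.24 and 9.17 on day 0, 9.00, 9.85 and 10.26 on day 2, 11.03, 10.90 and 10.58 on day 4 and 10.25, 12.24 and 12.30 on day 8. It was already well above the array medians before injury, and days 0 and 2 overlapped. Acta1 was 2.10 above day 0 on day 4 (SE 0.47, 4.28-fold, adjusted p = 0.00344) and 2.86 above it on day 8 (SE 0.47, 7.24-fold, adjusted p = 0.000398).

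Tnnt3, fast troponin T, gave 8.70, 7.88 and 8.38 on day 0, 8.20, 9.38 and 9.52 on day 2, 9.66, 9.71 and 9.75 on day 4 and 8.83, 11.35 and 11.62 on day 8. Fast troponin C, Tnnc2, gave 8.52, 7.94 and 8.45 on day 0, 8.41, 9.48 and 9.34 on day 2, 9.84, 9.43 and 9.46 on day 4 and 8.98, 11.90 and 12.03 on day 8. For Tnni2, fast troponin I, the values were 8.37, 7.01 and 8.64 on day 0, 8.10, 8.56 and 8.90 on day 2, 9.13, 9.22 and 9.04 on day 4 and 7.79, 11.02 and 11.06 on day 8. In each of these 3 genes every day 4 array lay above every day 0 array, yet the day 4 differences of 1.38, 1.28 and 1.12 were not called (adjusted p = 0.102, 0.189 and 0.352). Satellite day 8 replicate 1 enters that comparison only through the shared spread and the filter on dim probe sets. Without it, the Tnnt3 difference was called (1.38, adjusted p = 0.027). On day 8, Tnnt3 was 2.28 above day 0 (SE 0.57, adjusted p = 0.0122) and Tnnc2 2.67 above it (SE 0.63, adjusted p = 0.00889), while Tnni2 at 1.95 was not called (95% interval 0.41 to 3.50, adjusted p = 0.113). The Tnnt3 call was lost without day 0 replicate 2 (adjusted p = 0.0565), day 8 replicate 2 (0.0721) or day 8 replicate 3 (0.0909), and the Tnnc2 call without day 8 replicate 2 (0.0584) or replicate 3 (0.0688).

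The spread on day 8 lies in 1 array. Satellite day 8 replicate 1 was below replicates 2 and 3 in all 4 adult or fast genes and also in Tnnc1, Tnni1 and Actc1. For Tnnt1 it was the highest of the 3 and for Tnnt2 it lay between the other two. Without it, Tnni2 was 3.04 above day 0 (adjusted p = 0.00532), and against day 4 Tnnt3 was 1.78 higher (adjusted p = 0.0449) and Tnnc2 2.38 higher (adjusted p = 0.0132), which raised the count of members called between days 4 and 8 to 3. The mean of the 22 mature myofibre genes of a fixed list, such as those of myosin chains and creatine kinase, was 5.99 on that array, against 7.74 and 7.86 on the other two day 8 arrays. Ckm, the muscle creatine kinase gene, was 7.81 on it and 10.48 and 10.70 on the others. Myog, the gene of the differentiation factor myogenin, was 10.33 on it and 10.50 and 10.44 on the others. The part of fibre RNA in the adult or fast values was not tested.

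**Figure D2:**
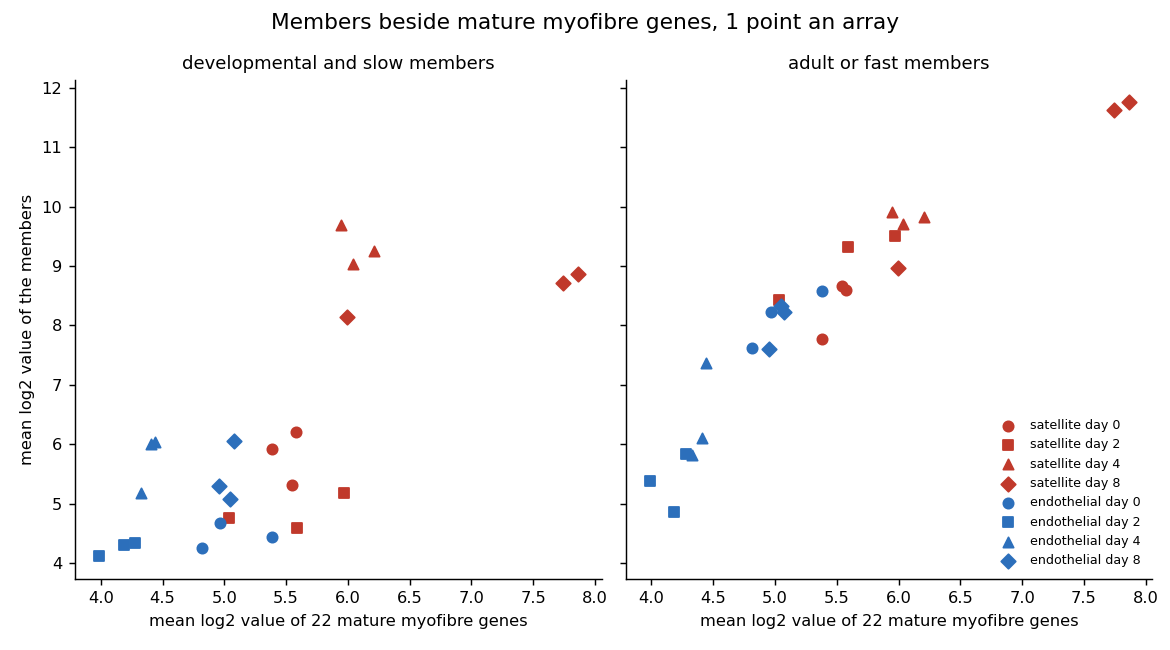
Mean log2 value of the 5 developmental and slow members (left) and of the 4 adult or fast members (right) on the y axis, against the mean log2 value of 22 mature myofibre genes on the x axis. Each point is 1 array, coloured by cell type and shaped by day. The adult or fast mean tends to rise with the myofibre mean. Satellite day 8 replicate 1 (myofibre mean 5.99) sits with the satellite day 4 arrays on the x axis. Its adult or fast mean was 8.96, below the 9.71 to 9.91 of those arrays.

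The change in balance between developmental or slow isoforms and their fast or adult paralogues was followed as the log2 difference within each array over the 4 satellite days. An exact permutation test of the F statistic over days (12 arrays, 3 a day, two-sided, adjusted over the 5 comparisons) was used. It takes the 4 days together, and no single day was tested on its own. Actc1 minus Acta1 moved, relative to its day 0 mean, down by 2.65 on day 2 and then to 1.80 above it on day 4 and 1.89 above it on day 8 (exact p = 0.00253, adjusted p = 0.00617). Tnnt2 minus Tnnt3 had a mean of -3.04 on day 0 and -3.80 on day 2. It stood 3.70 above its day 0 mean on day 4 and 1.98 above it on day 8 (exact p = 0.0037, adjusted p = 0.00617). Here the day 8 arrays differed among themselves, with replicate 1 close to the day 4 arrays. Tnnt1 minus Tnnt3 departed most from day 0 on day 2, with a mean of -1.32 on day 0 and -4.55 on day 2. It was 0.87 above day 0 on day 4 and 1.14 below it on day 8 (exact p = 0.00916, adjusted p = 0.0114).

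For troponin C the change between days 4 and 8 was the largest of the 5. Tnnc1 minus Tnnc2 was 2.31 above its day 0 mean on day 4 and 1.94 below it on day 8 (exact p = 0.00227, adjusted p = 0.00617). All 3 day 8 arrays were lower than all arrays of days 0 and 4, but arrays of days 2 and 8 overlapped. The mean was -3.09 on day 0, -3.92 on day 2 (SD 1.33) and -5.03 on day 8. Replicate 1 did not stand apart here, since both genes were low on it. Tnni1 minus Tnni2 had a mean of -2.65 on day 0 and -3.75 on day 2. It was 1.60 above day 0 on day 4 and 0.94 above it on day 8 (exact p = 0.0458, adjusted p = 0.0458). The Tnni1 minus Tnni2 result was lost in 8 of the 12 tests that left out 1 satellite array (adjusted p of 0.0505 to 0.126). Tnnt1 minus Tnnt3 was lost without satellite day 2 replicate 2 (adjusted p = 0.0582). When days were exchanged only among satellite arrays that share a number in the description field, which leaves 576 arrangements, none of the 5 passed. The adjusted p was then 0.177 for Tnni1 minus Tnni2 and 0.0825 for each of the other 4. This alternative was chosen after the data were seen.

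**Figure D3:**
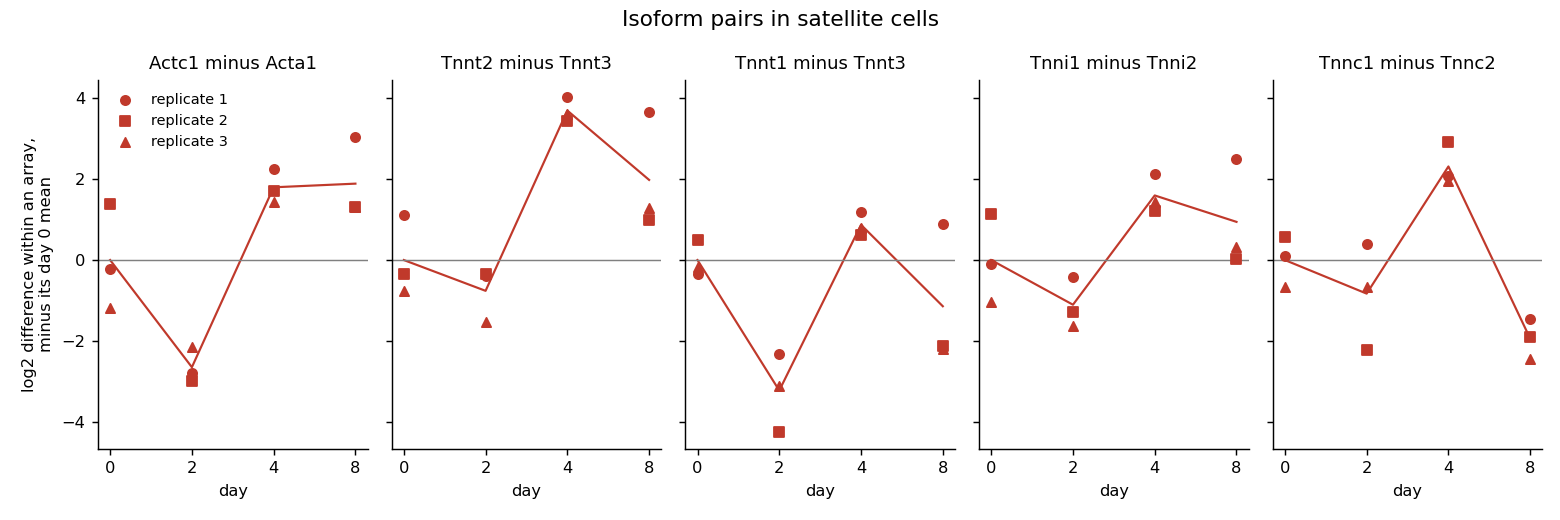
Log2 difference between 2 isoforms within each satellite array, minus the mean of that difference on day 0 (y axis), by day (x axis, evenly spaced). Points are arrays, with shapes for the replicates, and lines join day means (n = 3). The day mean is highest on day 4 in 4 of the 5 panels and on day 8 for Actc1 minus Acta1, and Tnnc1 minus Tnnc2 ends 1.94 below day 0.

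Genes of a fixed list of thin filament partners, taken broadly with Actn2, Actn3 and Unc45b included, moved with the members in part. In satellite cells 4 of 16 tested thin filament partners were called higher (all genes, 6.53%) and none lower on day 4 against day 0. They were Neb (nebulin) at 3.21 (SE 0.28), Klhl41 at 2.63 (SE 0.40), Actn3 (alpha-actinin 3 of fast fibres) at 2.05 (SE 0.40) and Klhl40 at 1.32 (SE 0.24). On day 8, 8 of the 16 were called higher (all genes, 4.38%), Klhl41 at 3.35 (SE 0.40) and the filament cap gene Tmod4 at 2.36 (SE 0.39) among them. On day 2, 1 was called higher and 2 lower, which is near the shares over all genes of 10.9% and 9.67%, with Tpm2 (beta-tropomyosin) at -1.73 (SE 0.42) and Xirp1 at -1.72 (SE 0.29). The median over the tested partners was -0.33 on day 2, 0.41 on day 4 and 1.01 on day 8.

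Genes of the embryonic and foetal muscle list were also high on day 4. That list is broad. It holds Chrna1, Cdh15 and Ncam1, with satellite day 0 means of 6.76, 7.49 and 8.21, beside Myh3 at 2.71. On day 4, 6 of 7 tested were called higher than on day 0, against 6.53% of all genes. On day 8, 3 of the 7 were called lower than on day 4, against 0.519% of all genes. Chrng, the foetal acetylcholine receptor subunit, gave 5.93, 6.31 and 5.37 on day 8, against 9.10, 8.69 and 9.07 on day 4, a difference of -3.08 (SE 0.30, adjusted p = 6.16e-06). Myh3, embryonic myosin heavy chain, was 1.86 lower on day 8 than on day 4 (log2 difference -1.86, SE 0.45, adjusted p = 0.0348). Of 12 myogenic regulators tested, 4 were called higher than day 0 on day 4 and 3 on day 8 (all genes, 6.53% and 4.38%). Mymk, the gene of the fusion protein myomaker, led at 5.10 (SE 0.35) on day 4 and 5.35 (SE 0.35) on day 8. Myog followed at 4.29 and 4.98 (SE 0.34 for both). On day 2, 3 of them were called lower (all genes, 9.67%), Pax7, the stem cell factor, by 4.10 (SE 0.37) and Myf5 by 3.35 (SE 0.38).

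Mature myofibre genes were called higher on day 4 for 5 of 19 tested and on day 8 for 15 of 19 (all genes, 6.53% and 4.38%). Mybpc2, a fast myosin binding protein gene, was at 3.62 (SE 0.68) on day 8. Of 3 other actins tested, 2 were called lower than day 0 on day 2 (all genes, 9.67%). From day 2 to day 4, 1 (Acta2) was called higher (all genes, 4.79%). Acta2, the smooth muscle alpha-actin gene, fell by 2.89 on day 2 (SE 0.49, adjusted p = 0.000114), and Actg2 by 2.96 (SE 0.62), and neither was called on day 8. Of the cardiac list only 2 of 6 genes passed the filter and neither was called on any satellite day. Myh6, the cardiac alpha myosin gene, stayed between 2.59 and 3.40 over all 24 arrays, below the array medians.

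Markers of other cell types also moved on these days. Beside the day 2 losses of Actc1 and Tnnt1, all 9 leukocyte genes were called higher, although cells were sorted as CD45-, and the mean of that list was 9.32 to 10.87 on the satellite day 2 arrays against 3.80 to 4.37 on day 0. Ptprc, the gene of CD45, was 9.82, 8.01 and 9.67 on day 2 against 3.13, 2.97 and 2.81 on day 0. At the same time 5 of 8 endothelial genes were called higher and all 7 pericyte and smooth muscle genes, Acta2 among them, lower. Over all genes, 10.9% were called higher and 9.67% lower on day 2. The leukocyte mean was 7.76 to 8.91 on day 4 with 8 of 9 called higher, and 5.72 to 7.37 on day 8 with 6 of 9 called higher. The shares of all genes called higher were 6.53% and 4.38% on these days. The endothelial genes had 4 called higher on day 4 and 5 on day 8, and pericyte genes 6 called lower on day 4 and 2 on day 8, where 5.47% and 2% of all genes were. Of 4 fibro-adipogenic genes tested, 2 were called lower on day 2, the extracellular matrix genes Dpt at -5.34 (SE 0.54) and Dcn at -2.17 (SE 0.50). On day 4, 2 were called lower (Dpt and Dcn) and 2 higher (Col1a1 and Lum). On day 8, Lum at 3.09 (SE 0.48) and Col1a1, a collagen gene, at 1.99 (SE 0.42) were called higher and Dcn lower. The part of these shifts in the members' values was not tested.

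In endothelial cells the adult or fast genes fell together on day 2, and Actc1 and Tnnt1 rose on days 4 and 8. On day 2, 4 of the 9 members were called lower than on day 0, exactly the 4 adult or fast genes, against 3.01% of all genes tested. On day 4, Actc1 and Tnnt1 (2 of 9) were called higher than on day 0, against 3.11% of all genes, and on day 8 the same 2 genes were, against 1.11%. The median of the adult or fast genes was -2.82 on day 2, -1.58 on day 4 and 0.02 on day 8, while that of all genes tested was between -0.02 and -0.0023.

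Acta1 in endothelial cells was 9.13, 8.22 and 8.78 on day 0, 6.30, 6.14 and 5.51 on day 2, 7.89, 7.39 and 6.62 on day 4 and 9.04, 8.29 and 9.49 on day 8. The day 2 and day 4 arrays all lay below day 0, and day 8 overlapped it. On day 2 Acta1 was 6.61-fold lower than on day 0 (log2 difference -2.73, SE 0.47, adjusted p = 0.000938). Tnnt3 showed the same course, with 8.72, 7.57 and 8.25 on day 0, 6.11, 4.28 and 5.20 on day 2, 6.99, 5.86 and 6.42 on day 4 and 7.97, 7.90 and 8.57 on day 8. It fell by 2.98 on day 2 (SE 0.57, adjusted p = 0.00193). Tnni2 fell by 2.90 (SE 0.74, adjusted p = 0.0167) and Tnnc2 by 2.49 (SE 0.63, adjusted p = 0.0156). On day 8 the differences from day 0 were between -0.60 (Tnni2) and 0.23 (Acta1), with 95% intervals as wide as -2.15 to 0.94 for Tnni2. The calls of Tnni2 and Tnnc2 were the fragile ones: without endothelial day 0 replicate 1 or without day 2 replicate 2 both were lost and the count was 2 (adjusted p of 0.0634 to 0.0867). Tnni2 was also lost without day 0 replicate 3 (adjusted p = 0.0532) or day 2 replicate 3 (0.0733), and Tnnc2 without day 2 replicate 1 (0.0734).

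The mature myofibre list moved with these genes in endothelial cells. Its mean was 3.99 to 4.28 on day 2, against 4.82 to 5.38 on day 0, and 4 of 19 tested genes were called lower, Mylpf (fast regulatory myosin light chain) by 2.59 (SE 0.55) and Pygm (muscle glycogen phosphorylase) by 2.02 (SE 0.40) among them. On day 8 its mean was 4.95 to 5.07. Ckm was 6.08, 5.76 and 4.98 on day 2, against 7.21, 5.99 and 6.91 on day 0. Leukocyte genes were called higher for 6 of 9 on day 2, 7 of 9 on day 4 and 2 of 9 on day 8. Of all genes, 3.73%, 3.11% and 1.11% were called higher on these days. Pericyte and smooth muscle genes were called lower for 2, 3 and 2 of 7 on days 2, 4 and 8, and 2.22% and 0.946% of all genes were lower on days 4 and 8. Of 4 fibro-adipogenic genes, 2 (Col1a1 and Lum) were called higher on day 8. The part of these lists in the members' values was not tested.

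Actc1 in endothelial cells was 4.09, 3.12 and 4.37 on day 0, 2.99, 3.53 and 3.27 on day 2, 6.92, 5.06 and 6.83 on day 4 and 5.52, 5.79 and 7.11 on day 8. All arrays of days 4 and 8 lay above all arrays of day 0. It was 2.41 higher on day 4 (SE 0.55, adjusted p = 0.00835) and 2.28 higher on day 8 (SE 0.55, adjusted p = 0.0279). Tnnt1, at 3.28, 4.36 and 4.20 on day 0, was 4.96, 4.90 and 5.48 on day 4 and 5.49, 4.67 and 5.88 on day 8. Its differences were 1.17 (SE 0.33, adjusted p = 0.0382) and 1.40 (SE 0.33, adjusted p = 0.0265) on these days. Tnnt2 was 1.60 higher on day 4, again with no overlap of arrays, and was not called (SE 0.48, adjusted p = 0.052). Myog was the single called gene of the 12 myogenic regulators on day 8, at 1.70 above day 0 (SE 0.34, adjusted p = 0.00811), with 5.40, 7.00 and 7.39 on day 8 against 5.10, 4.85 and 4.76 on day 0.

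These endothelial counts were fragile. On day 4 the count in either direction was 1 when any of the 6 endothelial arrays of days 0 and 4 was left out. Without day 4 replicate 1 that gene was Tnni2, called lower (-3.16, adjusted p = 0.0157). Satellite day 8 replicate 1, an array of neither group, enters only through the shared spread and the filter on dim probe sets. Without it, 3 adult or fast genes were called lower beside the 2 that were higher. These were Acta1 at -1.41 (adjusted p = 0.0285), Tnnt3 at -1.76 (0.0128) and Tnni2 at -2.32 (0.0178). Tnnt2 was called higher on day 4 in 6 of the 24 fits that left out 1 array. On day 8 the count was 0 without endothelial day 0 replicate 1 or day 8 replicate 3, and 1 without day 0 replicate 2, day 8 replicate 1 or day 8 replicate 2.

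**Figure D4:**
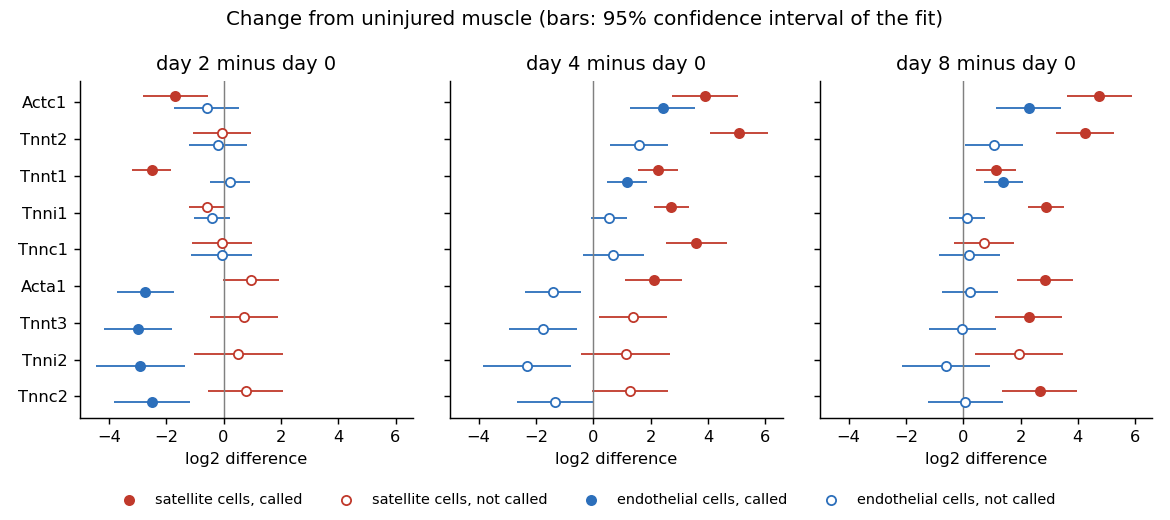
Log2 difference from day 0 (x axis) of each member (y axis) on days 2, 4 and 8 (panels), in satellite cells (red) and endothelial cells (blue). Points are fitted differences, bars their 95% confidence intervals, and filled points passed the call. Red and blue part on day 2 for the 4 adult or fast genes, and on day 8 the largest red value is Actc1 at 4.75.

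Satellite cells were set against endothelial cells on each day. On day 0, 2 of 9 members were called higher in satellite cells, against 7.59% of all genes: Tnnt1 by 3.05 (SE 0.33, adjusted p = 5.13e-07) and Actc1 by 2.39 (SE 0.55, adjusted p = 0.00257). The adult or fast genes differed by 0.03 for Acta1 (95% interval -0.95 to 1.01), 0.14 for Tnnt3 (-1.04 to 1.32), 0.31 for Tnnc2 (-1.01 to 1.62) and 0.33 for Tnni2 (-1.21 to 1.88). On day 2, 4 of 9 were called higher in satellite cells, the 4 adult or fast genes, by 3.58 to 3.84, against 5.82% of all genes. On day 4 all 9 were higher, against 5.2% of all genes, by 2.78 (Tnni1) to 4.14 (Tnnt1). On day 8, 8 were higher, against 7.05% of all genes, by 2.45 (Tnnt3) to 4.85 (Actc1), with Tnnc1 at 1.00 not called (adjusted p = 0.198). Without satellite day 8 replicate 1, Tnnc1 was 1.76 higher on day 8 and called (adjusted p = 0.00909). Tnni2 was lost on day 8 without satellite day 8 replicate 2 (adjusted p = 0.0535) or replicate 3 (adjusted p = 0.0548).

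Whether the change from day 0 was unlike in the cell types was tested as an interaction, which was called for 5 of 9 members on day 2, against 11.5% of all genes in either direction. The response in satellite cells minus that in endothelial cells was 3.69 for Acta1 (SE 0.67), 3.70 for Tnnt3 (SE 0.80), 3.42 for Tnni2 (SE 1.05) and 3.27 for Tnnc2 (SE 0.89), and -2.74 for Tnnt1 (SE 0.47). Endothelial Tnnt1 had a day 0 mean of 3.95, near background, from which no such fall could have been measured. On day 4, 5 of 9 were called higher, against 2% of all genes, with Acta1 at 3.50 (SE 0.67) and Tnnt2 at 3.48 (SE 0.69) in the lead, then Tnnt3, Tnnc1 and Tnni1. On day 8, 3 of 9 were called higher, against 1.39% of all genes: Tnnt2 at 3.20 (SE 0.69, adjusted p = 0.0135), Tnni1 at 2.76 (SE 0.42, adjusted p = 0.00107) and Acta1 at 2.63 (SE 0.67, adjusted p = 0.0407). With the replicate block Acta1 was not called on day 8 (adjusted p = 0.0541), with 2 of 9 left, and it was lost in 11 of the 24 fits that left out 1 array (adjusted p of 0.0510 to 0.116). Actc1, which rose in both cell types, was not called on day 4 (1.48, 95% interval -0.13 to 3.10) or day 8 (2.46, adjusted p = 0.11). Without satellite day 8 replicate 1 the day 8 count was 6, with Tnnt3, Tnni2 and Tnnc2 added. Without that array Tnni2 at 3.45 (adjusted p = 0.0173) and Tnnc2 at 2.62 (0.0244) were also called on day 4. On day 2, Tnni2 was lost in 7 of the 24 such fits (adjusted p of 0.0527 to 0.101) and Tnnc2 in 2 (0.0506 and 0.0618). Without endothelial day 2 replicate 2 both genes were lost and the count was 3. On day 4 the count was 3 without endothelial day 0 replicate 1, satellite day 0 replicate 3, satellite day 4 replicate 2 or endothelial day 4 replicate 2, when Tnnc1 and Tnnt3 were lost, and Tnnt3 was lost in 8 fits in all (adjusted p of up to 0.0760). With the number of the description field as a block, Tnni2 and Tnnc2 were lost on day 2 (adjusted p = 0.0798 and 0.0737), Tnnt3 on day 4 (0.0829) and Acta1 on day 8 (0.12).

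Across the 24 arrays the 9 genes fell into a tight and a looser set, given as a description over arrays that share groups and processing. Pearson's r was 0.924 to 0.967 among the 6 pairings of adult or fast genes, 0.702 to 0.937 among the 10 pairings of developmental and slow genes, and 0.496 to 0.766 between a gene of each kind. Within the 12 satellite arrays these ranges were 0.901 to 0.983, 0.588 to 0.961 and 0.297 to 0.792 in the same order. Within the 12 endothelial arrays the adult or fast genes still ran together (0.781 to 0.927), the developmental and slow genes less evenly (0.272 to 0.928), and pairings of a gene of each kind ran from -0.063 to 0.414.

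Of all other genes tested, the ones most alike to Actc1 over 24 arrays were H19 (r = 0.9625), Myog (0.946) and Mymk (0.939). For Tnnt2 they were Mymk (0.945), Ryr1 (0.930) and Myog (0.926), and for Tnni1 Bex1 (0.957), Mymk (0.956) and Klhl41 (0.952). Tnnt1 was most like Capn6 (0.969), Islr (0.955) and C1qtnf3 (0.945), and Tnnc1 most like Chrng (0.903), Dclk1 (0.896) and Tiam2 (0.882). None of the 3 genes nearest Tnnt1, and none of the 3 nearest Tnnc1, is among those nearest the other developmental and slow members. For Acta1, Tnnt3 and Tnni2 the nearest gene was Mylpf (0.964, 0.944 and 0.915), and for Tnnc2 it was Cox6a2 (0.929), a muscle subunit of cytochrome oxidase. In RefSeq, Tnni1 and Tnnt2 lie on either side of Lad1 on chromosome 1, Tnni2 and Tnnt3 on either side of Lsp1 on chromosome 7, and Tnnt1 next to Tnni3, the cardiac troponin I gene, on chromosome 7. The troponin C genes Tnnc1 (chromosome 14) and Tnnc2 (chromosome 2) have no troponin gene as a neighbour. Tnni3 itself was between 3.70 and 4.88 over all arrays, near the array medians, while its neighbour Tnnt1 changed on each satellite day. Tnni1 and Tnnt2 both rose on satellite days 4 and 8, as did Actc1 (chromosome 2), Tnnt1 (chromosome 7) and Acta1 (chromosome 8). Tnni2 and Tnnt3 both fell on endothelial day 2, as did Acta1 and Tnnc2. These moves were thus not particular to members that lie close together.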

How the data were processed

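RNA of sorted cells was amplified from picogram amounts and labelled with biotin, per the labels' protocols. The authors deposited log2 values per probe set, and RMA is named in the submitters' processing notes with no version given. RMA corrects background, quantile normalizes the arrays and summarises probe sets, so a change shared by most genes would be removed. The table holds 24479 probe sets, of which 23281 have 1 gene symbol in the platform annotation and 1198 have none and were not analysed here. No genome build is given in the sources used here for the array, and promoter sequences are those of RefSeq (GRCm38.p6).

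Genes entered the tests when their probe set exceeded the array median on 3 or more arrays. A single limma fit (version 3.58.1, under R 4.3.3) covered the 24 arrays and estimated the mean of each of 8 groups, leaving 16 residual degrees of freedom. The moderated tests were two-sided, with Benjamini-Hochberg adjustment over 14064 genes within a comparison. Exact permutation tests of isoform differences used scipy 1.17.1. No fold is printed where the lower mean is within 1 of the array medians or rests on arrays near background. The fit was also run on simulated data with independent normal noise on each array. Those data held no deviations shared between arrays and no outlying array. Replicate numbers were checked as pairs: of 12 same-number pairs of satellite and endothelial arrays, 4 had a correlation of deviations over 0.1 (range -0.065 to 0.198), so no pairing was used. The description field gives a further number after the day, which 11 of these pairs share. Same-day pairs across cell types that share it had correlations of -0.057 to 0.198 (median 0.043), over 0.1 in 4 of 11. Those that do not share it had -0.182 to 0.118 (median -0.011), over 0.1 in 1 of 25. Pairs across days within a cell type had -0.111 to 0.173, over 0.1 in 1 of 22, where they share it. Where they do not, the range was -0.126 to 0.139, over 0.1 in 4 of 86. The main fit takes no account of deviations shared by same-number arrays. The number of arrays limits the precision, and array numbers follow the days, so the order of arrays and the day cannot be told apart.

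The members, gene lists and tests were chosen with earlier results of these data known. All members are named. Of each list, at most the 4 called genes with the largest difference in a comparison and the list's defining genes are named. For each member, at most the 3 most correlated genes are named. The alternatives were other filters, rescaling, a fit of the compared groups alone, another prior, array weights, a replicate block, calls by p alone and leaving out each array. A block of the description number was added after seeing the data.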

Additional observations from a re-analysis of the deposited data

Results flagged for a closer look

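The response to injury differed between the cell types in 13 cases by the interaction test in limma (satellite change minus endothelial change, log2, adjusted p over all genes tested). On day 2 these were Acta1 at 3.69 (adjusted p = 0.00102), Tnnt3 at 3.70 (0.00428), Tnni2 at 3.42 (0.0376), Tnnc2 at 3.27 (0.0201) and Tnnt1 at -2.74 (0.000683). In the first 4 the endothelial value fell and the satellite value was not called, and in Tnnt1 the satellite value fell and the endothelial value was not called. Endothelial Tnnt1 was already near background on day 0 (mean 3.95), so a fall like that in satellite cells could not have been seen there. On day 4 the cases were Acta1 at 3.50 (adjusted p = 0.00327), Tnnt2 at 3.48 (0.00417), Tnnt3 at 3.15 (0.026), Tnnc1 at 2.90 (0.023) and Tnni1 at 2.18 (0.00378). On day 8 they were Tnnt2 at 3.20 (adjusted p = 0.0135), Tnni1 at 2.76 (0.00107) and Acta1 at 2.63 (0.0407). The Acta1 case of day 8 was lost in 11 of the 24 fits that left out 1 array, Tnni2 of day 2 in 7, Tnnc2 of day 2 in 2, Tnnt3 of day 4 in 8 and Tnnc1 of day 4 in 4. Groups of 3 arrays were not screened for single outlying arrays by a test. Each array was left out in turn, and satellite day 8 replicate 1 stood apart in the adult or fast genes.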

How the results depend on the processing

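Under the 10 alternatives that keep all arrays, 1301 of 1350 member differences kept their direction and side of the threshold. Counts of members called kept within 1.5 times in 141 of 150 cases. With only the groups of the comparison fitted, the count was 1 for satellite day 2, 0 for satellite day 8 against day 4 (Tnnc1 lost), 0 for endothelial day 8 and 1 for the difference in response on day 8. That fit has fewer samples to estimate the spread. Array weights gave 1 for satellite day 2 and 6 for endothelial day 4, where the count was 1 with no filter on dim probe sets (more genes tested) and 1 after quantile normalization again. The other causes were not tested. The values that changed sign were not called. With array weights these were 0.128 (Tnnt2) and 0.401 (Tnnc1) on satellite day 2, 0.0132 (Tnnt3) on endothelial day 8 and -0.101 (Tnnt2) for satellite against endothelial cells on day 0. With 75th percentile scaling and quantile normalization again, Tnnt3 was 0.0362 and 0.0350 on endothelial day 8, and the difference in response of Tnnc1 on day 2 was -0.0185 and -0.0118.

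When each array was left out in turn, the count of members called was 1 to 2 on satellite day 2, 6 to 7 on day 4, 4 to 8 on day 8 and 1 to 3 for day 8 against day 4. It was 2 to 4, 1 to 5 and 0 to 2 on endothelial days 2, 4 and 8. It was 2, 4 and 9 in every such fit for satellite against endothelial cells on days 0, 2 and 4, and 7 to 9 on day 8. For the difference in response it was 3 to 5, 3 to 7 and 2 to 6 on days 2, 4 and 8. Adjusted p of the isoform differences ran over 0.00357 to 0.0582 for Tnnt1 minus Tnnt3 and 0.0186 to 0.126 for Tnni1 minus Tnni2. Uncalled differences that changed sign spanned, for satellite day 2 Tnnt2 -0.44 to 0.698, Tnnc1 -0.34 to 0.446; for satellite day 8 against day 4 Tnni1 -0.0643 to 0.484; for endothelial day 2 Tnnt1 -0.106 to 0.434, Tnnc1 -0.214 to 0.196. The others spanned, for endothelial day 8 Tnni1 -0.0425 to 0.343, Acta1 -0.0428 to 0.557, Tnnt3 -0.341 to 0.235, Tnnc2 -0.173 to 0.253; for satellite against endothelial cells on day 0 Tnnt2 -0.486 to 0.653, Acta1 -0.216 to 0.279, Tnnt3 -0.166 to 0.41; for the difference in response on day 2 Tnnt2 -0.243 to 0.896, Tnni1 -0.395 to 0.00221, Tnnc1 -0.272 to 0.514; for the difference in response on day 8 Tnnt1 -0.601 to 0.0697.

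Same-number arrays did not deviate together throughout. With the replicate block the count for the difference in response on day 8 was 2, and adjusted p of the 5 isoform differences was between 0.0174 and 0.0365. No other count of members called moved with it. With the number of the description field as a block, chosen after seeing the data, the count for the difference in response on day 2 was 3 and the uncalled values that changed sign were 0.403 (Tnnt3) on endothelial day 8 and, for the difference in response on day 2, -0.0470 (Tnnt2) and -0.501 (Tnnc1). Tnni1 was then called lower on satellite day 2 (-1.12), and adjusted p of the isoform differences was 0.0825 for 4 and 0.177 for Tnni1 minus Tnni2, in a test with 576 arrangements.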
